A study of Mus musculus with 68 samples.

Results

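The genes described here encode the proteins of the cytosolic ribosome in mouse bone marrow erythroid cells. They were chosen by symbol, as Rpl or Rps followed by a number and at most 1 of the letters a, l or x, together with Rplp0, Rplp1, Rplp2 and Rpsa, and without pseudogenes. The rule found 81 of the 24059 symbols in the count tables, 49 of the large subunit and 32 of the small subunit. They are called ribosomal protein (RP) genes below. A ribosome holds 1 copy of nearly every such protein, bound to ribosomal RNA, and the P stalk of the large subunit, formed by Rplp0 with Rplp1 and Rplp2, recruits elongation factors. Erythroid progenitors make ribosomes at a high rate, and the red cell that they form loses its nucleus and later its ribosomes. In people, loss of 1 copy of one of several RP genes causes Diamond-Blackfan anemia, in which erythroid precursors fail.

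RNA was sequenced from flow-sorted bone marrow erythroid populations in 68 libraries. The labels give bone marrow as the tissue and no strain, age, Cre or promoter. The stage series holds 38 libraries of 8 populations, which are BFU-E with 3 libraries, CFU-E with 5, ERY-I (labelled ProE, proerythroblasts) with 7, ERY-II (BasoE, basophilic) with 4, ERY-III (PolyE, polychromatic) with 4, ERY-IV (OrthoE, orthochromatic) with 4, ERY-V (Retic, reticulocytes) with 7 and ERY-VI (RBC, red cells) with 4. BFU-E and CFU-E are the earlier and the later committed erythroid progenitor. The knockout series holds 3 GS-KO and 3 wild-type (WT) libraries in each of 5 gates, which are BFU-E, CFU-E, ERY-I-II (ProE/BasoE), ERY-III-VI (labelled PolyE/OrthoE and written here as on the label) and ERY-V-VI (Retic/RBC). GS is not spelled out in the labels and is taken as glutamine synthetase, the product of Glul. Glul stood at 22.3 to 24.0 counts per 1000000 library counts (CPM) in GS-KO ERY-V-VI, against 246.3 to 268.0 CPM in WT ERY-V-VI, and at 96.1 to 100.7 CPM in GS-KO BFU-E, against 120.02 to 125.45 CPM in WT BFU-E. In the other 3 gates the GS-KO libraries also lay below the WT libraries.

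Total counts lay between 1630863 and 11472763 for stage libraries and between 3131142 and 15806844 for knockout libraries. RP genes together had 280151 to 714081 counts per library in GS-KO CFU-E and 3779 to 9123 in ERY-VI, so single genes are measured far less precisely in the latest gates. The stage libraries form 2 sets. In 12 libraries, which are replicates 1 to 3 of the ERY-V, ERY-I, CFU-E and BFU-E groups, Y-linked transcripts were counted, while the other 26 carry Xist, the RNA of the inactive X chromosome. The labels do not say whether replicates are separate mice, so p-values reflect library-to-library spread, part or all of which may be technical. Chi-square over degrees of freedom between 2 libraries of a group would be near 1 from counting noise alone. Its median was 2.06 in the knockout series, 2.945 between Y-positive stage libraries and 44.8 between Xist-positive ones. Calls in the knockout series and within Y-positive libraries thus rest on replicates not far above counting noise. Defining erythroid markers were present in every population, with all 10 of the list counted in each knockout library. Neutrophil markers (9 genes) summed to 4314 to 13528 CPM in GS-KO libraries, against 25.9 to 654 CPM in WT libraries.

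The sequences around the transcription start were read for the members on which the results below turn. RP messenger RNAs are known to begin with a C followed by pyrimidines (a TOP motif), through which mTOR and LARP1 control their translation. RefSeq start sites on build GRCm38.p6 covered 60 of the 81 members. In the 30 bases below, 15 lie before the start and 15 from it onwards, and capitals mark the longest run of C and T.
Rplp0 at chr5:115559452-115559481, plus strand: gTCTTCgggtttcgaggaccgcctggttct
Rplp2 at chr7:141447636-141447665, plus strand: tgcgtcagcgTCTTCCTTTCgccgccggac
Rpl41 at chr10:128549154-128549183, minus strand: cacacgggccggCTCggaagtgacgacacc
Rps25 at chr9:44407699-44407728, plus strand: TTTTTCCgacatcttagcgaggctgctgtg
Rpl18 at chr7:45718056-45718085, plus strand: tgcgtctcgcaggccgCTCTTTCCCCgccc
Rps28 at chr17:33824548-33824577, minus strand: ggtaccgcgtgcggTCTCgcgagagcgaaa
Rpl12 at chr2:32961697-32961726, plus strand: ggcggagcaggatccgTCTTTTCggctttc
Rps23 at chr13:90923107-90923136, plus strand: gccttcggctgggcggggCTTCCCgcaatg
These 8 include members whose share of RP counts was higher in late gates (Rplp0, Rplp2, Rpl41). They also include those with large differences between genotypes (Rps25, Rpl18, Rps28) and those called lower at an early step in fits of all libraries (Rpl12, Rps23). The run of Rplp2 spans the start, and Rpl41 has a longest run of only 3 bases. That of Rps25 lies before the start and is cut by the left edge of the 30 bases, as its longer window below shows. Of the 60 members, 13 (21.7%) had a C and 4 pyrimidines exactly at the RefSeq start, against 3.01% of 27025 genes. A run of 8 pyrimidines within 20 bases of the start was found in 30 members (50%), against 18.8% of all genes.

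Motifs of transcription factors were searched on both strands in the 250 bases before to the 50 after each start. The ETS core CCGGAA was found in 33 of 60 members (55%), against 16.7% of all 27025 promoters, and the GC box GGGCGG in 36 members (60%), against 38.2%. The KLF motif CCNCNCCC, which overlaps the GC box, was found in 63.3% of members and 51.9% of all promoters, and the YY1 core AAGATGG in 15% and 7.28%. The GATA core AGATAA was found in 8.33% of members and 12.7% of all promoters, the E-box CACGTG in 10% and 8.09%, and TATAAA in 10% and 15.7%. The 3 upstream windows below, each with 120 bases before and 15 after the start, are shown because the courses of these members in late gates are described below. Capitals mark matches to the 7 motifs.
Rpl41 at chr10:128549154-128549288, minus strand: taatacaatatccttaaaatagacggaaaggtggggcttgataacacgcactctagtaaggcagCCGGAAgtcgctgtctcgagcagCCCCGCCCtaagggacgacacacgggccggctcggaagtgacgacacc
Rplp0 at chr5:115559347-115559481, plus strand: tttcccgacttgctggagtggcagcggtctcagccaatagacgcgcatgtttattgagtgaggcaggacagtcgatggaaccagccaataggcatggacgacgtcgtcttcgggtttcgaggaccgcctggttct
Rps25 at chr9:44407594-44407728, plus strand: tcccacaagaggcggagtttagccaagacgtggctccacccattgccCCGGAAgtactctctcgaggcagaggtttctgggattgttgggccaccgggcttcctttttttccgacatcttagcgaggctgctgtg
Rpl41 and Rps25 each hold an ETS core, Rpl41 also the overlapping GC box and KLF motif, and the Rplp0 window holds none of the 7. A match describes the letters only.

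The members lie on 19 chromosomes, and 14 of them are on chromosome 7. Most were abundant, but 8 never reached 30 CPM in any group mean. Rpl10l, Rpl3l and Rpl39l, retained or duplicated copies of Rpl10, Rpl3 and Rpl39 known from testis or muscle, had highest group means of 0.137, 1.39 and 0.207 CPM, and Rps4l, a copy of Rps4x, one of 5.47 CPM. Rpl30, Rpl34 and Rps27 had highest group means of 3.09, 3.82 and 1.65 CPM, and Rpl26 was listed at 0 in every library, although each encodes a standard ribosomal protein. RP genes have many processed copies in the genome. A median of 35.8% of the 50-base words in a member's exons also occurred in the exons of another gene, over the 80 members with an exon model, and 26 members shared more than 50%. Levels of single members are therefore uncertain wherever the authors' counting did not assign shared reads, and this holds for many of those named below. Rpl35 shared 95.1%, and Rpl36a, Rpl5, Rps6, Rpl24, Rpl7a, Rpl36 and Rpl13 shared 80.3 to 85.5%. Rps18, Rpl19, Rpl10, Rpl30, Rps4x, Rpl3, Rps12, Rpl6, Rps25, Rpl10a, Rps27a, Rplp1, Rps2, Rpl11 and Rps23 shared 51.7 to 79.4%, in the case of Rps25 mostly with its overlapping neighbour Trappc4.

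Per kilobase of exon, the level in WT BFU-E was highest for the stalk gene Rplp1, at 3609 CPM per kilobase, followed by Rpl4 with 2107, Rpl8 with 1900.0 and Rpl13a with 1838. Among the 73 members above the low group, Rpl18 was lowest at 51.3 CPM per kilobase, next to Rpl15 at 64.1 and Rps10 at 65.6.

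In the stage series RP genes took their largest share of counts in progenitors, and under 0.6% in every ERY-V library. The share was 4.87, 4.88 and 4.97% of all counts in the 3 BFU-E libraries. In CFU-E it was 4.55, 4.56 and 4.55% in the Y-positive libraries and 10.3 and 9.96% in the Xist-positive ones, and in ERY-I it was 2.70, 2.71 and 2.66% in the Y-positive and 5.42, 4.46, 4.17 and 5.39% in the Xist-positive ones. Within each set all ERY-I libraries lay below all CFU-E libraries, and in both gates all Xist-positive libraries lay above all Y-positive ones. The share was 0.878 to 1.26% in ERY-II, 1.15 to 2.10% in ERY-III and 0.393 to 0.968% in ERY-IV. It was 0.138 to 0.599% in ERY-V and 0.128 to 0.559% in ERY-VI, so these last gates overlapped. Globin messenger RNA took 57.2 to 71.1% of counts in ERY-VI. Among counts outside the globin genes the mean RP share was 1.45% for ERY-II, 1.93% for ERY-III, 1.05% for ERY-IV, 0.586% for ERY-V and 0.927% for ERY-VI. In bulk samples fewer cells of a type and less RNA per cell cannot be told apart, and shares say nothing of the amount per cell.

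**Figure D1:**
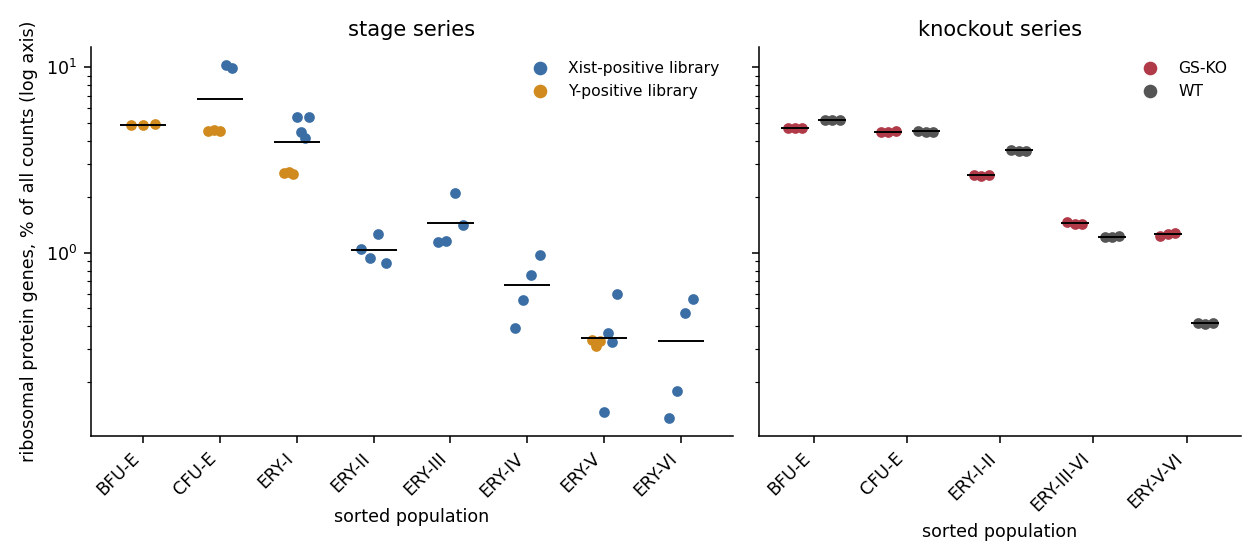
Share of library counts in the 81 ribosomal protein genes, in percent on a log axis, with 1 point per library, for the 8 stages in order of maturation and for GS-KO left of WT in each of the 5 gates. Y-positive and Xist-positive stage libraries are coloured apart. The CFU-E libraries split into 3 near 4.55% and 2 near 10%, and in ERY-V-VI the GS-KO libraries lie at 1.23 to 1.28% and the WT libraries at 0.410 to 0.417%.

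The split between library sets did not touch all members alike. In CFU-E the ratio of the Xist-positive to the Y-positive mean CPM had a median of 2.497 over the 73 members, from 1.10 to 7.72, and was above 1 for all of them. In ERY-I the median was 2.03, with 71 of 73 above 1, and in ERY-V it was 1.01, with 37 of 70 above 1. Rpl39, the smallest large-subunit protein next to Rpl41, stood at 405 and 418 CPM in the Xist-positive CFU-E libraries, against 53.7, 53.7 and 52.7 CPM in the Y-positive ones. Its ratio was 7.72 in CFU-E, 9.37 in ERY-I and 8.38 in ERY-V. Rps10, a Diamond-Blackfan gene, had 714 and 656 CPM in the Xist-positive CFU-E libraries, against 94.3, 95.9 and 93.8 CPM in the Y-positive ones, and ratios of 7.24, 7.44 and 6.07 in the same 3 gates. Rpl39 and Rps10 had the highest ratios of all members in each of these gates. The labels do not say what sets the libraries apart, and stage comparisons that mix the sets are therefore given with values within a set as well.

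**Figure D2:**
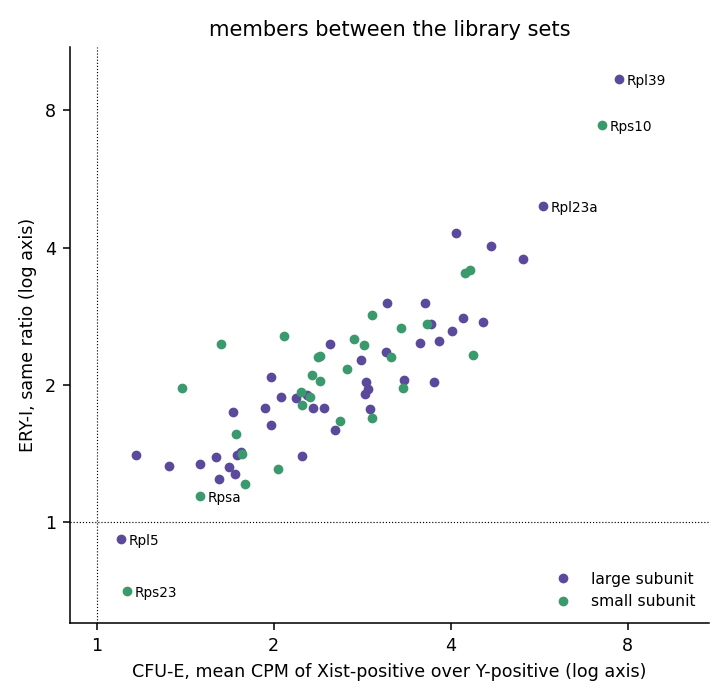
Ratio of mean CPM in Xist-positive to Y-positive libraries for each ribosomal protein gene, CFU-E on the x axis and ERY-I on the y axis, both log. Rpl39 and Rps10 lie far to the upper right at ratios of 7.2 to 9.4, while the median ratios are 2.497 and 2.03.

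CFU-E were set against BFU-E to ask how RP genes change between progenitors. Members were called where the Benjamini-Hochberg adjusted p of edgeR's quasi-likelihood test was under 0.05. Of the large subunit 0 of 45 tested members were called, and of the small subunit 2 of 32, both higher in CFU-E (18.2% of all genes tested were called higher and 19.1% lower). At an unadjusted p under 0.05, 11 members were higher and 0 lower, and DESeq2 called 10 higher. Rps27l, a paralog of Rps27, averaged 115.6 ± 57.5 CPM in CFU-E (n = 5) and 45.8 ± 4.2 CPM in BFU-E (SD, n = 3), a log2 fold change of 1.498 ± 0.417 (SE). Rps26, another Diamond-Blackfan gene, averaged 1113 CPM in CFU-E and 773 CPM in BFU-E (0.68 ± 0.20). The BFU-E libraries are all Y-positive, while the CFU-E means pool the sets. Rps27l averaged 74.5 CPM in Y-positive and 177 CPM in Xist-positive CFU-E, and Rps26 961 and 1340 CPM. Both calls ended when any 1 of the 3 BFU-E libraries was left out, and 4 to 6 members were called when 1 of the Y-positive CFU-E libraries was left out. In Y-positive libraries alone 17 members were higher and 36 lower in CFU-E, 33% and 34.5% of all genes were called higher and lower, and the median log2 change of members was -0.06. In the same contrast of the WT knockout series, whose libraries are all Y-positive, 8 members were higher and 50 lower.

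ERY-I were set against CFU-E, the step into recognisable erythroblasts. Only Rpl5 of 45 large-subunit members and Rps23 of 31 small-subunit members were called, both lower (20.9% of all genes were called lower and 25.4% higher). Rpl5 binds 5S ribosomal RNA together with Rpl11 and holds back the p53 regulator Mdm2, and it had 445, 452, 471, 496, 406, 332 and 440 CPM in the 7 ERY-I libraries, against 880, 879, 901, 950 and 1000 CPM in the 5 CFU-E libraries. All ERY-I values lay below all CFU-E values, and the log2 change was -0.71 ± 0.13 (edgeR adjusted p = 0.00071). Rps23, a protein of the decoding centre, averaged 713 ± 147 CPM in ERY-I and 1512 ± 109 CPM in CFU-E (-0.73 ± 0.14). Rps23 averaged 856 CPM in Y-positive ERY-I and 1438 CPM in Y-positive CFU-E, and 605 and 1622 CPM in the Xist-positive libraries. In CFU-E the Xist-positive to Y-positive ratio was 1.10 for Rpl5 and 1.13 for Rps23, against a median of 2.497. These were the lowest ratios of members there, so a call in this mixed fit does not set Rpl5 and Rps23 apart. Unadjusted, 6 members were lower and 0 higher, and DESeq2 called 6 lower.

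Single sets gave more calls at that step. Within Y-positive libraries 44 of 44 large-subunit and 30 of 31 small-subunit members were lower in ERY-I (38.1% of all genes), with a median log2 change of -0.64. Within Xist-positive libraries 25 and 15 members were lower (19.4% of all genes), with a median of -0.61. With the replicate number as a block 43 large-subunit and 29 small-subunit members were lower (25.4% of all genes), with a median of -0.63. Same-numbered libraries are of the same set at this step, so the block also separates the sets. Leaving out 1 CFU-E library of replicates 1 to 3 gave 4 or 5 calls and leaving out ERY-I replicate 7 gave 8. Neutrophil markers summed to 13619 to 14004 CPM in Y-positive ERY-I, against 26.5 to 29.3 CPM in Y-positive CFU-E, and to 0.409 to 1260 CPM in Xist-positive ERY-I, against 4.20 to 5.97 CPM in Xist-positive CFU-E. The part of these cells in the difference was not tested.

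ERY-II were set against ERY-I, and a minority of RP genes were called in the fit of all libraries. In CPM 66 members were lower in ERY-II without overlap, as were 53.6% of all genes. Of the large subunit 17 of 43 and of the small subunit 6 of 30 members were lower and 0 higher (25.1% of all genes were lower and 20.2% higher). By DESeq2 28 members were lower and 0 higher, and unadjusted 33 were lower and 0 higher. The median log2 change was -0.69 for the large and -0.67 for the small subunit, against -0.35 for all genes. Rps23 had 111, 111, 122 and 70.3 CPM in the 4 ERY-II libraries, against a lowest value of 510 and a highest of 872 CPM in ERY-I (median 695). Rps23 changed by -1.43 ± 0.15 and lay below ERY-I in all 4 ERY-II libraries. Rpl12, a protein beside the stalk base, averaged 95.5 ± 24 CPM in ERY-II and 622 ± 128 CPM in ERY-I (-1.37 ± 0.27), and Rpl32 averaged 85.1 CPM in ERY-II and 518 CPM in ERY-I (-1.32 ± 0.35). Rpsa, a small-subunit protein also described as a laminin receptor, averaged 336 CPM in ERY-II and 1710 CPM in ERY-I (-0.98). By contrast Rplp0 changed by -0.11 ± 0.42 and Rpl41 by 0.65 ± 0.60, neither called. ERY-II libraries are all Xist-positive, while this fit pools both sets of ERY-I. In ERY-I the Xist-positive to Y-positive ratio was 4.03 for Rpl41, 2.26 for Rplp0, 1.14 for Rpsa and 0.706 for Rps23. The pooled fold changes thus also carry the set difference. Within Xist-positive libraries Rplp0 took 5.64% of RP counts in ERY-II and 4.31% in ERY-I, and Rpl41 3.61% and 1.87%. Rpsa took 3.24% and 3.72%, with overlap, and Rps23 at most 1.18% and at least 1.19%. Of the 23 calls 12 were kept whichever library was left out, and 14 and 12 members were called without ERY-II replicate 1 or 2. In Xist-positive libraries alone 37 large-subunit and 28 small-subunit members were lower (23.8% of all genes).

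The next 3 steps, within late erythroblasts and on to reticulocytes, gave no calls in the separate fits. In ERY-III against ERY-II, 0 of 73 members passed edgeR's threshold, with 4 higher at an unadjusted p under 0.05 and 0 by DESeq2 (0.185% of all genes were higher and 0% lower). All 73 fold changes were positive, with a median of 0.34, and with the replicate number as a block 8 members were higher (4.86% of all genes were higher and 5.41% lower). In ERY-IV against ERY-III, 0 of 73 passed edgeR's threshold, with 1 lower unadjusted and 0 by DESeq2 (3.29% of all genes were lower and 10.3% higher). The median was -0.50, 1 fold change of 73 was positive, and with the block 21 large-subunit and 19 small-subunit members were lower (9.08% of all genes were lower and 16.1% higher). Same-numbered libraries deviated together in both of these comparisons, so the numbers were taken as pairs there. In ERY-V against ERY-IV, 0 of 73 were called, with 2 lower unadjusted and 0 by DESeq2 (2.33% of all genes were lower and 6.49% higher). The median was -0.20. In Xist-positive libraries alone edgeR also called 0 of 73, with 1 higher and 0 lower unadjusted (5.04% of all genes were higher and 1.54% lower), and the median was 0.26, so its sign turned.

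ERY-VI were set against ERY-V, red cells against reticulocytes. After TMM scaling 8 of 42 large-subunit and 2 of 29 small-subunit members were higher and 0 lower (3.32% of all genes were higher and 4.51% lower). The called members included Rplp0, Rplp1 and Rplp2 of the stalk, Rpl4, Rpl10, Rpl13 and Rpl38, and Rps9 and Rps12, named here after their values were seen. Rplp1 had 25.6, 54.4, 132 and 183 CPM in ERY-VI, against a lowest value of 25.2, a median of 82.5 and a highest of 107 CPM in ERY-V. These ranges overlapped, as they did for every tested member (0.139% of all genes were higher without overlap and 23.1% lower), although the log2 change of Rplp1 was 1.97 ± 0.37 (edgeR adjusted p = 0.0043). The sign thus rests on the scaling. With library totals edgeR called 0 members higher and 2 lower (0 and 5 at an unadjusted p under 0.05), and the median of all genes moved to -2.24, against -0.34 with TMM. In Xist-positive libraries alone 0 members were called by edgeR, with 15 higher and 0 lower at an unadjusted p under 0.05 (1.52% of all genes were called higher). Without ERY-V replicate 6, ERY-V replicate 7 or ERY-VI replicate 3, 21, 17 and 5 members were higher, and only 2 of the 10 calls were kept throughout.

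The WT libraries of the knockout series cover the same maturation in triplicate. In WT CFU-E against WT BFU-E, 4 of 45 large-subunit and 4 of 32 small-subunit members were higher, and 27 and 23 were lower (34.5% of all genes were higher and 36% lower). The changes were small, with a median of -0.14. The largest falls without overlap were those of Rpl28, with 306.7 ± 7.9 CPM in WT CFU-E and 452.6 ± 15.4 CPM in WT BFU-E (-0.46 ± 0.03), Rpl35a (-0.44), Rpl17 (-0.39), Rps28 (-0.47), Rps19 (-0.39) and Rps24 (-0.38), while Rps2 (0.20), Rpl7a (0.16) and Rpl8 (0.08) were higher. Rps19, the gene most often mutated in Diamond-Blackfan anemia, had 318, 307 and 300 CPM in WT CFU-E, against 412, 439 and 449 CPM in WT BFU-E. In WT ERY-I-II against WT CFU-E, 23 of 44 large-subunit and 19 of 30 small-subunit members were higher and 11 and 2 lower (39.9% and 41.9% of all genes). There Rpl41 (0.64), Rplp0 (0.34), Rpl28 (0.32), Rps29 (0.34), Rps15a (0.29) and Rps15 (0.28) were highest, and Rpl15 (-0.19), Rpl38 (-0.16) and Rpl10a (-0.14, lost when 1 of the libraries was left out) lowest in the large subunit. That direction turned with library totals, where 1 member was higher and 70 lower, a scaling that moves the median of all genes to -0.47, against -0.03. In CPM 71 members were lower without overlap and 1 higher, as were 61.2% and 24.6% of all genes.

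The large fall came later. In WT ERY-III-VI against WT ERY-I-II, 43 of 43 large-subunit and 30 of 30 small-subunit members were lower (38.1% of all genes were lower and 35.3% higher), with a median of -0.83, against -0.07 for all genes. All 73 calls were kept whichever library was left out. Rpl32 had 104, 108 and 114 CPM in WT ERY-III-VI, against 446, 450 and 438 CPM in WT ERY-I-II, a log2 change of -1.33 ± 0.04. Next to it came Rpl18 (-1.29 ± 0.08), Rpl36 (-1.28 ± 0.05), Rps18 (-1.15), Rps2 (-1.10) and Rps27a (-1.10), a small-subunit protein made as a fusion with ubiquitin. In WT ERY-V-VI against WT ERY-III-VI, 19 of 43 large-subunit and 23 of 30 small-subunit members were lower and 0 higher (12.9% of all genes were lower and 18.4% higher), by DESeq2 42 were lower and 0 higher, and unadjusted 49 were lower and 2 higher. Rps25, which contacts viral internal ribosome entry sites, had 5.37, 4.79 and 3.81 CPM in WT ERY-V-VI, against 36.2, 38.8 and 37.4 CPM in WT ERY-III-VI (-1.86 ± 0.25). Rpl32 (-1.06), Rpl36a (-0.96), Rpl29 (-0.95), Rps10 (-1.29, lost without 1 library) and Rps27a (-1.05) also fell, whereas Rplp0 (0.03 ± 0.05), Rplp2 (-0.03 ± 0.06) and Rps14 (0.03 ± 0.13) were not called. With library totals all 73 were lower and the median of all genes was -1.16. In CPM all 73 were lower without overlap, as were 73.2% of all genes.

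Since all members were counted in the same library, their proportions to each other do not depend on the scaling. The ratio of large-subunit to small-subunit counts averaged 1.59 ± 0.0066 for BFU-E, 1.59 ± 0.0076 for CFU-E and 1.57 ± 0.040 for ERY-I. It averaged 1.75 ± 0.041 for ERY-II, 1.67 ± 0.094 for ERY-III, 1.84 ± 0.195 for ERY-IV, 2.25 ± 0.318 for ERY-V and 2.80 ± 0.207 for ERY-VI (SD over libraries). The 3 BFU-E, 5 CFU-E and 7 ERY-I libraries stayed between 1.502 and 1.636, and the 4 ERY-VI libraries between 2.498 and 2.970. In ERY-V the ratio averaged 2.39 ± 0.371 in Xist-positive and 2.07 ± 0.089 in Y-positive libraries, and each ERY-V library lay above every library of an earlier stage in its own set. Without the 3 stalk genes and Rpl41 the means were 1.35 for BFU-E, 1.32 for CFU-E, 1.29 for ERY-I, 1.33 for ERY-II, 1.27 for ERY-III, 1.36 for ERY-IV, 1.58 for ERY-V and 1.61 for ERY-VI, so the late climb was smaller without these 4 genes.

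**Figure D3:**
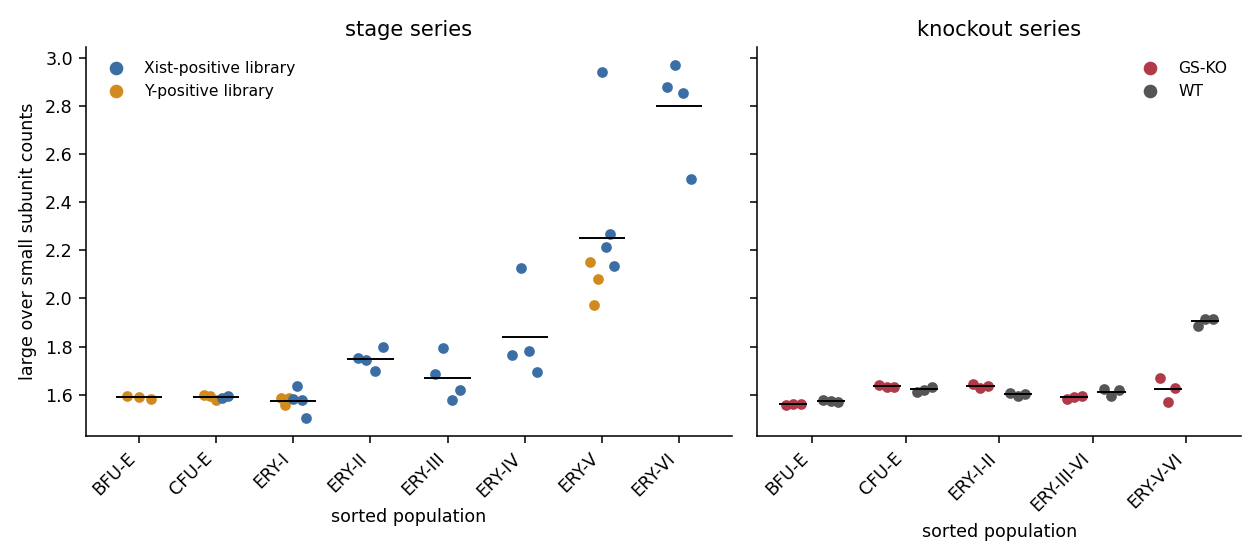
Ratio of summed large-subunit to summed small-subunit counts in each library, by stage and by gate with GS-KO left of WT. The ratio stays near 1.6 through ERY-I and reaches 2.498 to 2.970 in ERY-VI, and in ERY-V-VI it lies at 1.57 to 1.67 in GS-KO and at 1.89 to 1.92 in WT libraries.

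The part of RP counts taken by single members differed along the stages and between the library sets. The mean Rplp0 part of RP counts was 2.82 ± 0.019% for BFU-E, 3.45 ± 0.466% for CFU-E, 3.93 ± 0.528% for ERY-I, 5.64 ± 0.677% for ERY-II, 5.38 ± 0.336% for ERY-III, 6.31 ± 0.340% for ERY-IV, 7.50 ± 1.95% for ERY-V and 12.1 ± 1.63% for ERY-VI. The libraries of ERY-VI and of BFU-E did not overlap, while those of ERY-V (5.35 to 10.6%) overlapped both neighbours. Within Y-positive libraries Rplp0 took 6.06 ± 0.710% in ERY-V and 2.82% in BFU-E, and within Xist-positive libraries 12.1% in ERY-VI and 3.95 ± 0.194% in CFU-E (n = 2). Rpl41, which encodes a very short basic protein, made up 0.639 ± 0.057% for BFU-E, 1.43 ± 0.557% for ERY-I, 3.61 ± 1.38% for ERY-II, 4.93 ± 3.38% for ERY-V and 9.67 ± 2.07% for ERY-VI. BFU-E libraries are all Y-positive and ERY-VI libraries all Xist-positive, and the Rpl41 part was 7.34 ± 2.18% in Xist-positive and 1.72 ± 0.231% in Y-positive ERY-V. Within Y-positive libraries Rpl41 thus took 1.72% in ERY-V and 0.639% in BFU-E, and within Xist-positive libraries 9.67% in ERY-VI and 1.49% in CFU-E. Rplp2, a flexible arm of the stalk, took 6.59 ± 1.40% in ERY-VI and 2.47 ± 0.030% in BFU-E. Its partner Rplp1 took 2.78 ± 0.549% in ERY-VI and 3.42 ± 0.014% in BFU-E, the opposite order to Rplp2, but these 2 groups differ in library set. Within Y-positive stage libraries Rplp1 took 3.05% in ERY-V and 3.42% in BFU-E. In the WT knockout libraries, also Y-positive, Rplp1 went the other way, with 4.33 ± 0.565% in ERY-V-VI and 3.47 ± 0.088% in BFU-E. Within Xist-positive libraries it took 2.78% in ERY-VI and 2.66% in CFU-E, so the opposite order was not seen there. Rplp1 took less in Xist-positive libraries, with 1.74% in Xist-positive and 3.05% in Y-positive ERY-V. Rpsa went the other way, with 5.51 ± 0.171% in BFU-E, 3.24 ± 0.35% in ERY-II and 2.27 ± 0.761% in ERY-VI. Rpsa took 3.32% in Y-positive ERY-V, against 5.51% in BFU-E, and 2.27% in ERY-VI, against 3.96% in Xist-positive CFU-E. In the promoter windows above, Rplp0 and Rplp2 have C/T runs of different length and Rpl41 has almost none.

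**Figure D4:**
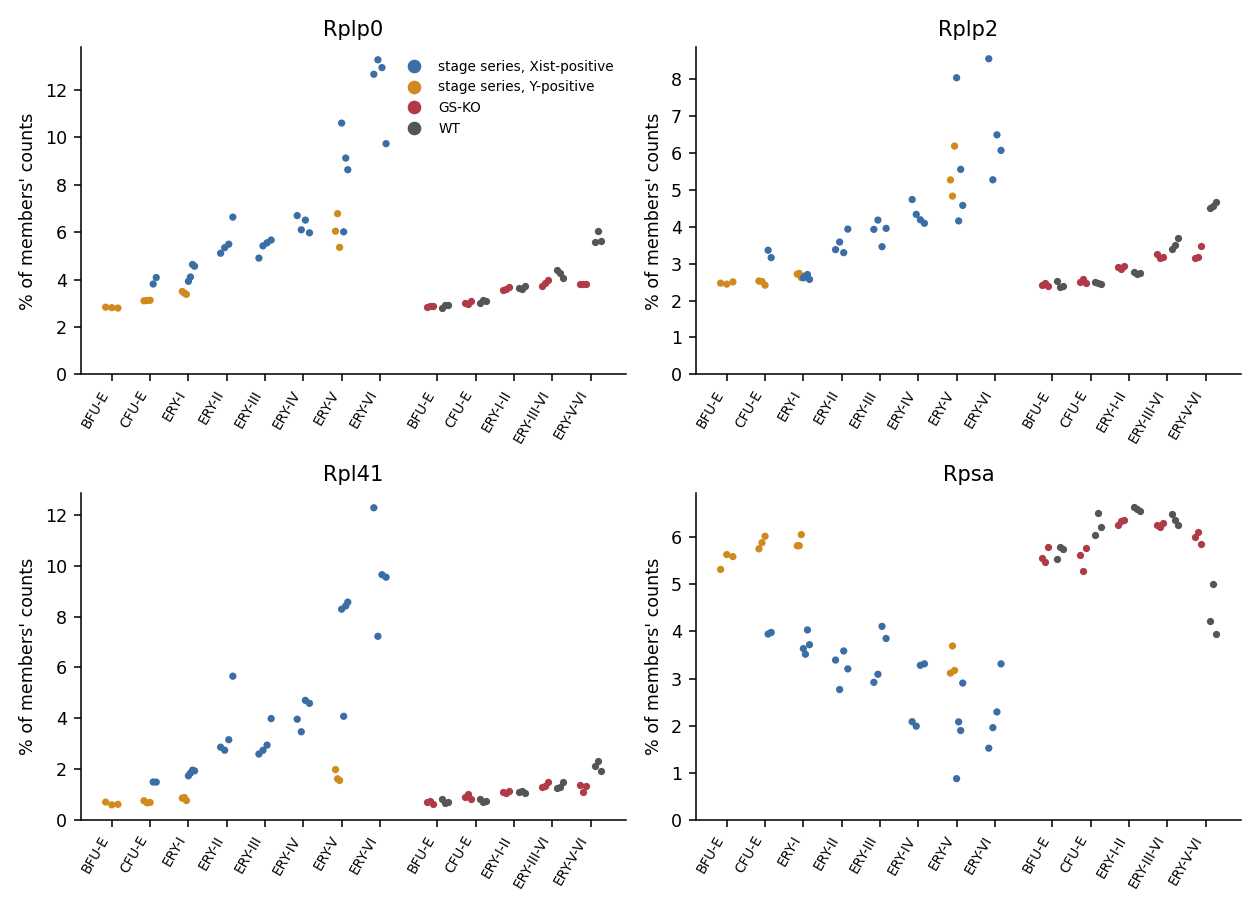
Counts of Rplp0, Rplp2, Rpl41 and Rpsa as a percent of the counts of all ribosomal protein genes, 1 point per library, by stage and by gate with GS-KO left of WT. Rplp0 reaches 9.72 to 13.3% in ERY-VI and Rpsa falls to 1.52 to 3.31%.

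GS-KO were set against WT within each gate to ask how RP genes differ in cells labelled as lacking GS. The share of RP genes was 4.69, 4.68 and 4.69% in GS-KO BFU-E, against 5.21, 5.17 and 5.18% in WT BFU-E. It was 4.48, 4.45 and 4.52% in GS-KO CFU-E, against 4.52, 4.49 and 4.49% in WT CFU-E. In ERY-I-II it was 2.61, 2.60 and 2.61% in GS-KO, against 3.58, 3.55 and 3.55% in WT. The knockout was thus lower in BFU-E and ERY-I-II, and the CFU-E libraries overlapped. In ERY-III-VI the share was 1.46, 1.43 and 1.42% in GS-KO, against 1.21, 1.22 and 1.22% in WT, and in ERY-V-VI it was 1.23, 1.26 and 1.28% in GS-KO, against 0.417, 0.410 and 0.416% in WT. The knockout was higher in both late gates, 3.03-fold in ERY-V-VI. Globin took 7.77% of counts in GS-KO ERY-V-VI and 19.7% in WT ERY-V-VI, and outside globin the RP shares were 1.36% in GS-KO and 0.516% in WT.

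Markers of other cells moved with genotype in every gate. In ERY-V-VI neutrophil markers summed to 13362 to 13528 CPM in GS-KO, against 608 to 654 CPM in WT, macrophage markers to 837 to 898 CPM, against 68.7 to 85.8 CPM, and erythroid markers to 89690 to 90808 CPM, against 196959 to 199633 CPM. The erythroid list includes the globin genes Hba-a1 and Hbb-b1. All globin genes took 7.69 to 7.82% of counts in GS-KO and 19.6 to 19.8% in WT ERY-V-VI. These erythroid sums therefore do not show how erythroid genes other than globin differed. In ERY-I-II neutrophil markers summed to 6183 to 6284 CPM in GS-KO, against 108 to 116 CPM in WT, and erythroid markers to 41599 to 41828 CPM, against 24345 to 24424 CPM. All 9 neutrophil markers had counts in every GS-KO library and 8 or 9 in WT libraries. B cell markers (8 genes) summed to 15.3 to 56.4 CPM in GS-KO libraries, against 0.703 to 4.44 CPM in WT libraries, and megakaryocyte markers (4 genes) to 10.2 to 36.6 CPM, against 3.37 to 30.4 CPM. The part of these cells in the RP differences was not tested.

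In BFU-E RP genes were slightly and broadly lower in GS-KO. Of the large subunit 32 of 44 and of the small subunit 20 of 31 members were lower and 0 higher (8.59% of all genes were lower and 15.4% higher), with 56 lower and 0 higher unadjusted and 46 lower and 0 higher by DESeq2. The median log2 change was -0.12. Rpl13a, which in human cells silences inflammatory messenger RNAs when off the ribosome, had 1771, 1760 and 1776 CPM in GS-KO BFU-E, against 2120, 2175 and 2130.0 CPM in WT BFU-E (-0.26 ± 0.02). Rps28 had 60.7, 54.3 and 54.0 CPM in GS-KO BFU-E, against 90.6, 74.1 and 81.8 CPM in WT BFU-E (-0.52 ± 0.07). All 3 knockout libraries lay below all 3 wild-type libraries for both. Rpl36 (-0.24), Rpl6 (-0.23), Rps18 (-0.32) and Rps24 (-0.20) were the other largest falls, and 40 of the 52 calls were kept whichever library was left out. Neutrophil markers summed to 7024 to 7102 CPM in GS-KO BFU-E, against 26.7 to 36.4 CPM in WT BFU-E.

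In CFU-E the members moved in both directions by small amounts. Of the large subunit 12 of 45 were higher and 7 lower, and of the small subunit 10 of 32 were higher and 7 lower (17.9% of all genes were higher and 11.5% lower), with a median of 0.01. Rpl35a had 104, 107 and 98.1 CPM in GS-KO CFU-E, against 79.3, 71.3 and 72.1 CPM in WT CFU-E (0.46 ± 0.05). Rpl27a (0.26), Rpl29 (0.23), Rps27l (0.29), Rps27a (0.19) and Rps25 (0.21, lost when either of 2 libraries was left out) were also higher, and Rpl6 (-0.21), Rpl31 (-0.13), Rpl5 (-0.12), Rps28 (-0.30), Rps26 (-0.15) and Rpsa lower. Rpsa averaged 2490 ± 132 CPM in GS-KO CFU-E and 2811 ± 97 CPM in WT CFU-E (-0.18 ± 0.03, n = 3 each). Without WT CFU-E replicate 2, 11 members were higher and 8 lower, and without GS-KO CFU-E replicate 2, 13 and 9. DESeq2 called 11 higher and 15 lower.

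In ERY-I-II nearly all RP genes fell. Of the large subunit 41 of 43 and of the small subunit 30 of 30 members were lower and 0 higher (17.5% of all genes were lower and 22.9% higher), and DESeq2 likewise called 71 lower and 0 higher. Unadjusted, 71 were lower and 0 higher. The median was -0.31, against -0.01 for all genes. Rps26 had 503.7, 493.3 and 527.5 CPM in GS-KO ERY-I-II, against 764, 773 and 785 CPM in WT ERY-I-II (-0.49 ± 0.03). Rps28 had 27.0, 25.8 and 21.9 CPM in GS-KO, against 47.9, 45.1 and 48.3 CPM in WT (-0.80 ± 0.11). Rps28 had the lowest fold change among the called small-subunit members without overlap in GS-KO BFU-E, CFU-E and ERY-I-II. Rpl31 averaged 144 ± 6.3 CPM in GS-KO and 225 ± 5.6 CPM in WT (-0.53 ± 0.05), and Rpl35 (-0.45), Rpl9 (-0.44) and Rps18 (-0.49) followed. Of the 71 calls 67 were kept whichever library was left out.

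In ERY-III-VI the share of members called higher was near that of all genes. Of the large subunit 15 of 43 were higher and 0 lower, and of the small subunit 11 of 30 were higher and 2 lower (31.4% of all genes were higher and 24.5% lower), with a median of 0.10, against 0.05 for all genes. Rpl18 averaged 41.1 ± 4.1 CPM in GS-KO and 27.1 ± 0.44 CPM in WT (0.45 ± 0.11), and Rps9 averaged 298.5 ± 4.3 CPM in GS-KO and 219.6 ± 9.0 CPM in WT (0.29 ± 0.04). Rpl10 (0.29) and Rps27a (0.30) were also among the highest, as were Rpl35a (0.31) and Rps13 (0.30), whose calls ended in 3 and in 1 of the 6 leave-outs of a library. The calls depend on the scale, with 61 higher with library totals and 1 higher and 35 lower when all groups of the series were fitted together. The shares of all genes called in these fits are not given here. In CPM 56 members were higher without overlap and 0 lower, as were 43% and 15.8% of all genes. Without GS-KO ERY-III-VI replicate 1, 17 were higher and 1 lower, and without replicate 2, 1 was lower. Neutrophil markers summed to 9923 to 10002 CPM in GS-KO ERY-III-VI, against 251.9 to 254.98 CPM in WT ERY-III-VI.

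In ERY-V-VI every tested member had a higher CPM in GS-KO than in WT without overlap, as did 80.3% of all genes (4.19% were lower without overlap). After scaling to the rest of the transcriptome 18 of 43 large-subunit members were higher and 3 lower, and 17 of 30 small-subunit members higher and 1 lower (22.4% of all genes were higher and 20.5% lower). The median log2 change was 0.26 for the large and 0.46 for the small subunit, against 0.15 for all genes. Rps25 had 42.3, 45.3 and 42.4 CPM in GS-KO ERY-V-VI, against 5.37, 4.79 and 3.81 CPM in WT ERY-V-VI (1.93 ± 0.29). Rpl32 had 138, 137 and 153 CPM in GS-KO, against 22.4, 26.8 and 21.6 CPM in WT (1.31 ± 0.14). Rpl18 had 41.4, 37.2 and 41.1 CPM in GS-KO, against 7.48, 5.43 and 6.77 CPM in WT (1.30 ± 0.28). These 3 were the largest differences, and Rpl36a (1.03 ± 0.15), Rps27a (1.07 ± 0.19) and Rps20 (0.86 ± 0.15) followed.

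The members called lower after scaling were Rplp0, Rpl41, Rpl24 and Rps29. Rplp0 had 468, 481 and 486 CPM in GS-KO ERY-V-VI, against 233, 248 and 234 CPM in WT ERY-V-VI, which is higher per library total and lower by 0.29 ± 0.06 after TMM scaling. Rpl41 averaged 159 ± 17.4 CPM in GS-KO and 87.6 ± 7.6 CPM in WT (-0.43 ± 0.11). The calls of Rpl24 (-0.51 ± 0.19) and Rps29 (-0.38 ± 0.11) ended when 1 library was left out, in 5 and 2 of the 6 ways, and without GS-KO ERY-V-VI replicate 1 only 2 members were lower. With library totals all 73 members were higher and the median of all genes was 1.44. Of the 39 calls with TMM, 24 were kept whichever library was left out.

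**Figure D5:**
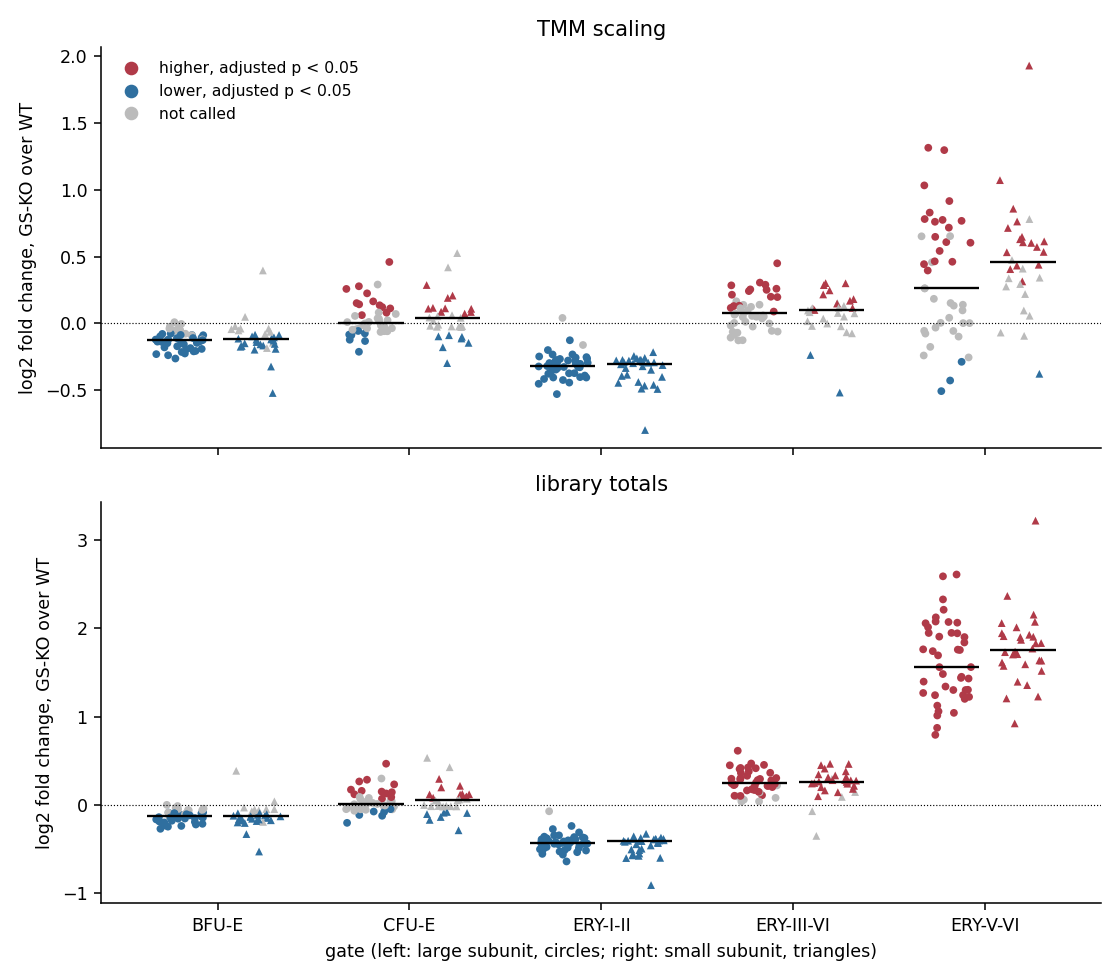
Log2 fold change of each tested ribosomal protein gene in GS-KO over WT, by gate, with TMM scaling above and library totals below. Large-subunit members are circles on the left and small-subunit members triangles on the right of each gate, coloured by call, and bars are medians. In ERY-V-VI 35 of 73 members are called higher with TMM and 73 with library totals, and in ERY-I-II 71 of 73 are called lower with TMM.

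The proportions among RP gene counts also differed in the latest gate, in a way the scaling does not touch. These are RNA counts, and ribosomes or their proteins were not measured. Large over small counts averaged 1.62 ± 0.052 in GS-KO ERY-V-VI and 1.91 ± 0.017 in WT ERY-V-VI, without overlap. In the other 4 gates the means lay between 1.56 and 1.64 in GS-KO and between 1.57 and 1.62 in WT. Rplp0 took 3.81 ± 0.015% of RP counts in GS-KO ERY-V-VI and 5.75 ± 0.253% in WT, Rplp2 took 3.27 ± 0.173% in GS-KO and 4.57 ± 0.089% in WT, and Rpl41 took 1.27 ± 0.141% in GS-KO and 2.11 ± 0.199% in WT. Rpsa took 5.99 ± 0.123% in GS-KO and 4.38 ± 0.546% in WT. None of these 4 overlapped between genotypes. Rplp1 did overlap, with 3.74 to 3.91% in GS-KO and 3.71 to 4.81% in WT. In the earlier WT gates Rplp0 took 4.24% in ERY-III-VI and 3.65% in ERY-I-II, Rplp2 took 3.53% and 2.74%, and Rpl41 took 1.35% and 1.10%. Neutrophil counts in these GS-KO libraries are given above. With 3 libraries a side, an exact permutation test of 1 such value cannot go below 0.10.

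The genotype effect differed between gates for most members. In 1 fit of all 30 knockout libraries the interaction of genotype and gate was called for 39 of 45 large-subunit and 30 of 31 small-subunit members (edgeR, 61.2% of all genes). The 7 without a call were Rpl19, Rpl27, Rpl30, Rpl34, Rpl37, Rpl39 and Rps4l, named here after their values were seen.

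The landmark members show this gate by gate. Rps19 had 177, 182 and 194 CPM in GS-KO ERY-I-II, against 256, 250 and 260 CPM in WT ERY-I-II (-0.35 ± 0.04). In ERY-V-VI Rps19 had 73.2, 101 and 90.5 CPM in GS-KO, against 17.5, 28.7 and 28.8 CPM in WT (0.54 ± 0.20, adjusted p = 0.044 in edgeR, lost in 3 of 6 leave-outs). Both differences were free of overlap and opposite in sign. Rpl11, the partner of Rpl5 on 5S ribosomal RNA, changed by -0.42 ± 0.05 in ERY-I-II and 0.65 ± 0.23 in ERY-V-VI (lost in 5 of 6 leave-outs), and Rpl5 by -0.29 ± 0.03 and 0.77 ± 0.11. Rpsa had 739, 767 and 750.0 CPM in GS-KO ERY-V-VI, against 176, 205 and 164 CPM in WT ERY-V-VI (0.76 ± 0.07), and changed by -0.39 ± 0.02 in ERY-I-II. Rps6, whose protein is the substrate of S6 kinase, changed by -0.27 ± 0.03 in ERY-I-II and was not called in ERY-V-VI (0.28 ± 0.12). Rps14, the gene behind the anemia of the human 5q deletion, changed by -0.33 ± 0.04 in ERY-I-II and was not called in ERY-V-VI (-0.09 ± 0.13).

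A list of 21 members held human Diamond-Blackfan genes together with Rps14 of the 5q deletion. Of this list 10 of 19 tested were lower in GS-KO BFU-E, 4 were higher and 5 lower of 20 in CFU-E, and 18 of 19 were lower in ERY-I-II. In GS-KO ERY-III-VI 6 were higher and 1 lower of 19, and in ERY-V-VI 9 were higher and 1 lower of 19, with medians of 0.11 and 0.57. Of all genes 8.59% were lower in GS-KO BFU-E, 17.9% higher and 11.5% lower in CFU-E, 17.5% lower in ERY-I-II, 31.4% higher in ERY-III-VI and 22.4% higher in ERY-V-VI, so the ERY-III-VI count was near that of all genes. All 3 stalk genes were lower in GS-KO BFU-E and ERY-I-II and 1 was lower in ERY-V-VI, while in CFU-E and ERY-III-VI their uncalled log2 changes lay between -0.06 and 0.01. For the paralogs with measurable counts, Rpl3 changed by 0.44 ± 0.09 and Rps4x by 0.61 ± 0.15 in GS-KO ERY-V-VI, whereas Rpl10 (0.26 ± 0.13), Rpl39 (-0.08 ± 0.45) and Rps27l (0.34 ± 0.41) were not called. The copies Rpl3l, Rpl10l, Rpl39l and Rps4l stayed at or under the low levels given above.

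The tables also held 7 genes of other ribosome proteins outside the symbol rule. In GS-KO ERY-I-II Fau (-0.28), Gnb2l1 (Rack1, a signalling scaffold on the small subunit, -0.30) and Rps3a1 (-0.32) were among the 4 of 7 called lower (17.5% of all genes). In GS-KO ERY-V-VI 3 were called higher and 1 lower (22.4% and 20.5% of all genes). Gnb2l1 averaged 352 ± 7.7 CPM in GS-KO ERY-V-VI and 104 ± 16.5 CPM in WT ERY-V-VI (0.46 ± 0.10).

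Translation factors and related proteins that also carry TOP motifs formed a list of 18 genes. In GS-KO ERY-I-II 1 was higher and 14 lower (22.9% and 17.5% of all genes), and in GS-KO ERY-V-VI 11 were higher and 5 lower (22.4% and 20.5% of all genes). Their summed level was 17507 to 17660 CPM in GS-KO ERY-V-VI, against 33894 to 34004 CPM in WT ERY-V-VI. Pabpc1 alone made up most of this sum in both genotypes, so the sum follows that gene. Without Pabpc1 the rest of the list summed to more in GS-KO than in WT. Eef1a1, which brings aminoacyl-tRNA to the ribosome, averaged 2498 ± 23 CPM in GS-KO ERY-I-II and 3451 ± 11 CPM in WT ERY-I-II (-0.35 ± 0.02), and changed by 0.49 ± 0.06 in ERY-V-VI. Npm1, a nucleolar protein of ribosome assembly, averaged 254 ± 7.0 CPM in GS-KO ERY-V-VI and 43.2 ± 3.8 CPM in WT ERY-V-VI (1.26 ± 0.10). Pabpc1, the cytoplasmic poly(A)-binding protein, went the other way. It averaged 12060 ± 91 CPM in GS-KO ERY-V-VI and 31271 ± 111 CPM in WT ERY-V-VI (-2.67 ± 0.01), and in WT it was higher in ERY-V-VI than in ERY-III-VI by 3.37 ± 0.02, where 6756 ± 117 CPM were counted. Tpt1, the translationally controlled tumor protein, averaged 951 ± 9.9 CPM in GS-KO ERY-V-VI and 849 ± 22 CPM in WT ERY-V-VI (-1.13 ± 0.04 with TMM, 0.17 with library totals).

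Regulators of TOP translation and factors that rescue stalled ribosomes are given as context. Of 10 regulators 2 were higher and 2 lower in GS-KO ERY-I-II (22.9% and 17.5% of all genes). In GS-KO ERY-V-VI 2 were lower (20.5% of all genes), so these counts were near those of all genes. Among the 2 was Eif4ebp2, a repressor of cap binding (49.2 ± 3.9 CPM in GS-KO and 45.1 ± 4.3 CPM in WT, -1.17 ± 0.16 with TMM). The summed level of the regulators was 731 to 740.3 CPM in GS-KO ERY-V-VI, against 347 to 391 CPM in WT ERY-V-VI, and that of the rescue factors 582 to 631 CPM, against 369 to 410 CPM. In that gate 80.3% of all genes were higher in CPM in GS-KO without overlap. Of the 7 rescue factors measured 1 was higher and 4 lower in GS-KO ERY-V-VI (22.4% and 20.5% of all genes). Abce1, which splits ribosomes into subunits, was higher (124 ± 23.6 CPM in GS-KO and 25.6 ± 2.0 CPM in WT, 0.97 ± 0.17). Pelo (-1.14 ± 0.17), Hbs1l (-0.91 ± 0.19) and Gtpbp2 (-1.23 ± 0.07), which act on stalled ribosomes, were lower with TMM. In WT ERY-III-VI against WT ERY-I-II, where all 73 tested members fell, Pelo (1.19 ± 0.08) and Gtpbp2 (1.84 ± 0.04) rose and Abce1 (-1.004 ± 0.051) fell.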

How the data were processed

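The deposited tables hold raw read counts per gene, whole numbers with differing totals, for 38 stage and 30 knockout libraries. The authors' alignment used STAR 2.5.2b and build mm10, and their counting used HTSeq, per the submitters' processing notes. The library kit named in the labels' protocols is a stranded one for small amounts of total RNA. Annotation and strand setting were not given in the sources used here. Reads shared between copies of RP genes may be lost or split by such counting.

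Each of 16 comparisons (7 of neighbouring stages, 9 in the knockout series) was fitted on its own libraries with edgeR 4.0.16 in R 4.3.3 (filterByExpr, minimum count 10 and total 15, TMM, quasi-likelihood test, adjusted p threshold 0.05 over all genes tested). Each SE is the size of the log2 fold change divided by the root of its F value. CPM uses library totals. DESeq2 1.42.0, other scalings, filters, a replicate block, all groups in 1 fit, single library sets and leaving out each library were alternatives. The scripts were tested on simulated data. Tables were summarised with Python 3.11.15 and pandas 2.3.3. Intervals were not computed, and SDs cover the spread between libraries only.

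The members, lists and tests were chosen with earlier results of these data known. Named are 8 landmarks, 5 pairs of paralogs, and per comparison and subunit the 3 highest and 3 lowest called members of at least 5 CPM without overlap. The values of some genes that this rule or the lists cover are not reported here. Replicate numbers were taken as pairs where every correlation of same-numbered deviations from group means was over 0.1. That held for ERY-III with ERY-II (0.44 to 0.74) and ERY-IV with ERY-III (0.23 to 0.47). It also held for ERY-I with CFU-E (0.33 to 0.43), where same-numbered libraries are of the same Y-positive or Xist-positive set. The set alone can give such correlations, so they cannot show pairing at that step. What a shared number stands for is not stated. Promoters are RefSeq's on GRCm38.p6, and protein sequences were not used here.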

Additional observations from a re-analysis of the deposited data

Results flagged for a closer look

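Of 77 groups of values tested for a library far from the others, 3 stood out, and chance flags about 1 in 20 groups. The ratio of large-subunit to small-subunit counts was 2.939 in ERY-V replicate 4, far above the other ERY-V libraries. Rplp0 stood at 517.1 CPM in ERY-V replicate 7, and Rps6 at 231.0 CPM in ERY-III replicate 3. The genotype effect differed between gates by the interaction test for 69 of 76 members. Of the pseudogenes, which are outside the rule, Rps15a-ps6 reached 58.26 CPM in Xist-positive stage libraries and Rps19-ps3 15.33 CPM, while in Y-positive libraries they reached at most 1.48 and 1.30 CPM in the stage series and 2.07 and 1.22 CPM in the knockout series.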

How the results depend on the processing

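Among stage steps, edgeR counts of called members that moved by over 1.5 times were these. Here and in the next paragraph the shares of all genes called under each setting are not given. These counts thus show the dependence on processing only. For CFU-E over BFU-E, 2 members were higher, against 10 with DESeq2, 0 with all groups in 1 fit, 0 with triplicates summed, 17 in Y-positive libraries only, 18 with the replicate block and 0 to 6 with 1 library left out, and 0 were lower, against 36 in Y-positive libraries only and 36 with the block. For ERY-I below CFU-E, 2 were called, against 32 with library totals, 6 with DESeq2, 0 with all groups, 72 with the block, 74 in Y-positive and 40 in Xist-positive libraries, 71 with the set as a term and 2 to 8 with 1 library left out. For ERY-II below ERY-I, 23 were called, against 70 with totals, 7 with all groups, 12 with the block (4 higher), 65 in Xist-positive libraries, 42 with triplicates summed and 12 to 33 with 1 left out. For ERY-III above ERY-II, 0 became 8 with the block. For ERY-IV below ERY-III, 0 became 27 with totals, 1 with no filter and 40 with the block. For ERY-V below ERY-IV, 0 became 3 with totals, 2 with no filter, 3 with all groups, 18 with the block and 0 to 1 with 1 left out. For ERY-VI above ERY-V, 10 became 0 with totals, 26 with the block, 0 in Xist-positive libraries, 1 with triplicates summed and 5 to 21 with 1 left out, and 0 lower became 2 with totals and 1 with all groups. The cause was not tested.

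In GS-KO against WT, CFU-E had 22 members higher, against 11 with DESeq2, 3 with all groups and 11 to 21 with 1 left out, and 14 lower, against 8 to 19 with 1 left out. ERY-I-II had 0 higher, against 1 with all groups. ERY-III-VI had 26 higher, against 61 with totals, 16 with DESeq2, 1 with all groups and 17 to 26 with 1 left out, and 2 lower, against 6 with RLE, 0 with totals, 7 with DESeq2, 35 with all groups and 1 to 3 with 1 left out. ERY-V-VI had 35 higher, against 73 with totals, and 4 lower, against 0 with totals, 9 with all groups and 2 to 4 with 1 left out. In WT, CFU-E over BFU-E had 8 higher, against 2 with totals and 5 with all groups. ERY-I-II over CFU-E had 42 higher, against 1 with totals and 19 with all groups, and 13 lower, against 70 with totals and 20 with no filter. ERY-V-VI over ERY-III-VI had 0 higher, against 1 with all groups and 0 to 2 with 1 left out, and 42 lower, against 73 with totals. The cause was not tested.

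The signs of these log2 changes turned. With the block and in Y-positive libraries only, CFU-E over BFU-E gave Rps14 -0.23 and -0.23, Rps19 -0.30 and -0.30, Rps27a -0.26 and -0.26, and Rps6 -0.14 and -0.14. In GS-KO ERY-III-VI, Rplp0 was 0.10 with totals, and with all groups Rps14 was -0.19, Rps6 -0.15 and Rpsa -0.18. In GS-KO ERY-V-VI with totals, Rpl24 was 0.79, Rpl41 0.87, Rplp0 1.01, Rps14 1.21 and Rps29 0.92. In WT CFU-E over BFU-E with totals, Rpl11 was -0.078, Rpl8 -0.024 and Rpsa -0.071. In WT ERY-I-II over CFU-E with totals, Rpl28 was -0.11, Rplp0 -0.090, Rps14 -0.31, Rps15 -0.16, Rps15a -0.14, Rps19 -0.28, Rps27a -0.28, Rps29 -0.093, Rps6 -0.25 and Rpsa -0.26. In WT ERY-V-VI over ERY-III-VI with totals, Rplp0 was -1.12 and Rps14 -1.13. The cause was not tested.

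Shares of counts outside globin, and outside globin and the 10 most abundant genes, were 1.45 and 1.69% in ERY-II, 1.93 and 2.19% in ERY-III, 1.05 and 1.25% in ERY-IV, 0.586 and 0.754% in ERY-V, 0.927 and 1.36% in ERY-VI, 2.69 and 2.88% in GS-KO ERY-I-II, 3.61 and 3.81% in WT ERY-I-II, 1.52 and 1.68% in GS-KO ERY-III-VI, 1.28 and 1.43% in WT ERY-III-VI, 1.36 and 1.52% in GS-KO ERY-V-VI, and 0.516 and 0.631% in WT ERY-V-VI. Outside both, they were 5.01% in BFU-E, 4.79% in GS-KO BFU-E, 5.29% in WT BFU-E, 4.58% in GS-KO CFU-E and 4.59% in WT CFU-E. The interaction was called for 67 to 70 members with 1 library left out. Pairing by number could not be told apart from the library set for ERY-I with CFU-E. It held for ERY-III with ERY-II and ERY-IV with ERY-III, and not for the other stage steps, where block counts are not a measure of effect. Low RP counts limit ERY-VI most.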
